A study of Mus musculus with 4 samples.

Results

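The genes described here are 10 feedback inhibitors of the RAS-ERK pathway, namely the dual-specificity phosphatase genes Dusp1, Dusp2, Dusp4, Dusp5, Dusp6 and Dusp10, the Sprouty genes Spry1 and Spry2, and the Spred genes Spred1 and Spred2. They were found by symbol among 52636 genes, each matching 1 row. RNA sequencing was done on Th17 cells, the interleukin-17-secreting helper T cells, of C57BL/6 mice, with 2 libraries of the PP2A WT and 2 of the PP2A cKO genotype. The labels do not say which PP2A subunit was deleted, by which Cre line, or at what age the mice were taken. In both genotypes naive T cells had been polarized for 2 days beside irradiated antigen presenting cells with anti-CD3, anti-CD28, TGF-β1, IL-6 and antibodies to IL-4 and IFN-γ. All 4 cultures were then restimulated with PMA and ionomycin for 4 h, so no unstimulated level is known and induction itself was not measured. PP2A is a serine/threonine phosphatase, and the series asks whether Th17 differentiation needs it.

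In T cells the antigen receptor, or PMA in its place, activates RAS through RasGRP proteins, and RAS drives the kinase chain of RAF, MEK and ERK. Active ERK induces transcription of its own inhibitors, which end the signal. DUSP proteins remove the activating phosphates from MAP kinases, whereas Sprouty and Spred proteins act further up, at RAS and RAF. DUSP1, DUSP2, DUSP4 and DUSP5 act in the nucleus, DUSP6 holds back ERK in the cytoplasm, and DUSP10 prefers the related kinases p38 and JNK.

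None of these genes passed the test between the genotypes, and Dusp6 came closest, with a mean 1.55 times as high in cKO. Dusp6 lies on chromosome 10 (99263231 to 99267489, GRCm38), Spred2 on chromosome 11 (19924375 to 20024026), Dusp1 on chromosome 17 (26505590 to 26508519) and Dusp4 on chromosome 8 (34807297 to 34819894). Chromosome 2 carries both Dusp2 (127336159 to 127338376) and Spred1 (117121374 to 117182279), and Spry2 lies on chromosome 14 (105891949 to 105896819). Dusp5 (chromosome 19, 53529109 to 53542431), Dusp10 (chromosome 1, 184013302 to 184075636) and Spry1 (chromosome 3, 37639947 to 37644598) each overlap another annotated gene. Whether strand was used in counting is not known here, and reads of such pairs then cannot be told apart. The partner of Spry1, Gm42922, was at 0.744 to 1.43 FPKM and that of Dusp10, 1700056E22Rik, at 0.0804 to 0.426 FPKM.

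Promoter sequences are shown for Dusp6, the gene with the highest fold change, and for Dusp1 and Dusp5, whose promoters hold letter patterns of stimulus-induced transcription that are rare among promoters. RefSeq windows on GRCm38.p6 run from 250 bases before to 50 bases after the start site, on the strand of the gene, and 9 of the 10 genes matched the table. Capitals mark matches to the AP-1 pattern TGANTCA, the CREB/ATF pattern TGACGTCA and the ETS pattern CCGGAA, on either strand. They also mark the EGR pattern GCGTGGGCG, the CArG box of serum response factor and the NF-kB site. Shorter ETS matches than CCGGAA were not searched for. The windows are chr17:26508423-26508722 for Dusp1 (minus strand), chr19:53528895-53529194 for Dusp5 (plus strand) and chr10:99262981-99263280 for Dusp6 (plus strand).
Dusp1: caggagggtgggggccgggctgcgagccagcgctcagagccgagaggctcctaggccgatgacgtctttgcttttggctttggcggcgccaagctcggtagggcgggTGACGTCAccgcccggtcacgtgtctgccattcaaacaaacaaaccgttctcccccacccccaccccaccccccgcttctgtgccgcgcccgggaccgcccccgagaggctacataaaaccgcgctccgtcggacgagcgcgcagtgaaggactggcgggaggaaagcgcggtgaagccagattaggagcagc
Dusp5: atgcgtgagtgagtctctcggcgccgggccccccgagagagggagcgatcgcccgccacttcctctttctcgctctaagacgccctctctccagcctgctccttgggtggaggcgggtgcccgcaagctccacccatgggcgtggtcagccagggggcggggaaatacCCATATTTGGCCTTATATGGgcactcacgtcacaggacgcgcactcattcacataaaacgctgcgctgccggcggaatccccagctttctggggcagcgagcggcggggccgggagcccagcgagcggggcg
Dusp6: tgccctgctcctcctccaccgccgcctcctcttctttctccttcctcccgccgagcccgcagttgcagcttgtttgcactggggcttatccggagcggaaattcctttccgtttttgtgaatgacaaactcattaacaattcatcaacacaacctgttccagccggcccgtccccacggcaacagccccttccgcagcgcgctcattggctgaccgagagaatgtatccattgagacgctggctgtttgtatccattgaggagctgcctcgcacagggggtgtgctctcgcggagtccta
In Dusp1 the capitals are a full TGACGTCA that begins 143 bases before the start site, a pattern held by 1.79% of 32851 promoter windows. Dusp5 holds a pair of adjacent CArG boxes that begin 82 and 72 bases before the start site, and 1.63% of windows hold such a box. The Dusp6 window holds none of the 6 marked patterns. The full CCGGAA was found in Spry2 alone of the 9 windows, against 14.9% of all windows. TGANTCA, GCGTGGGCG and the NF-kB site were found in none, against 7.81%, 0.612% and 4.51%. These are matches of letters in 300 bases, with no binding measured here.

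Many transcripts of this kind are short-lived. The 3' untranslated regions were searched for the AU-rich pentamer ATTTA, the heptamer TATTTAT and the nonamer TTATTTATT. To such AU-rich sites mRNA decay factors such as tristetraprolin bind. All 10 genes hold at least 1 ATTTA in their longest annotated 3' untranslated region in GENCODE M21, as do 70.3% of 9167 genes with FPKM of at least 1 on average. Dusp2 and Dusp1 had the highest density, with 6.88 and 5.8 per kilobase, and Dusp6 the lowest, with 0.84, against a median of 1.35 over those genes. The heptamer was in 6 of 10 members, namely Dusp1, Dusp2, Spry1, Spry2, Spred1 and Spred2, against 30.8% of genes. Dusp1 was the single member with the nonamer, in 2 places, against 8.44% of genes. Both sites are shown with 9 bases on either side and the nonamer in capitals.
Dusp1 first site: agctggtccTTATTTATTtaacacccc
Dusp1 second site: tttttacctTTATTTATTtttgtgtag
The first lies at base 103 and the second at base 392 of a region of 690 bases.

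The libraries held 18517487 to 20387948 gene-assigned reads, recovered from the FPKM values (fragments scaled to gene length and to library size). cKO replicate 1 stands apart in a relation to transcript GC content across 10550 genes, which are not independent replicates. Its difference from the WT mean had a Spearman's rho of -0.38 with GC content, against 0.03 for cKO replicate 2. The rho was -0.53 for the difference between the cKO libraries and 0.12 for that between the WT libraries. No PP2A catalytic or scaffold gene passed the test. Ppp2ca had 42.2 and 50.1 FPKM in WT and 41.8 and 34.5 in cKO (limma, adjusted p = 0.36), and the adjusted p for Ppp2cb, Ppp2r1a and Ppp2r1b ran from 0.684 to 0.91. The deleted exons are not known, so a gene total need not show a deletion, and directions rest on the labels. All 8 T cell markers were present, with summed FPKM of 1171 and 1118 in WT and 1369 and 1484 in cKO. Of them 5 of 8 had an unadjusted p under 0.05 (4 higher and Zap70 lower), against 19.8% of all tested genes. All 8 Th17 markers were present at sums of 4230 and 3888 in WT and 3119 and 3016 in cKO. At an unadjusted p under 0.05 there were 6 of 8 (2 higher and 4 lower), beside the same 19.8%. None of these markers passed the adjusted threshold in limma. Of the CD8 T cell markers, Cd8a was at 0.257 to 0.548 FPKM and Cd8b1 at 7.06 and 7.91 in WT and 9.03 and 9.84 in cKO (limma, adjusted p = 0.198). The part of these marker levels in the results below was not tested. Markers of cells that the irradiated antigen presenting cells could hold summed to between 0.985 and 1.30 FPKM for 8 B cell genes, 1.34 and 2.29 for 8 macrophage genes, and 0.445 and 0.654 for 7 dendritic cell genes, of which Siglech, Clec9a and Cd209a were at 0. Of 4 NK cell genes Ncr1 and Klrb1c were at 0.

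The 10 genes were expressed at very different levels. In WT, on the FPKM scale, which allows levels to be compared between genes, Dusp4 (223 ± 17.0) and Spry1 (220.4 ± 16.0) were the most abundant, and their values overlapped (mean ± SD, n = 2). Dusp2 followed at 107 ± 4.47, then Dusp5 at 58.6 ± 9.57 and Dusp6 at 53.7 ± 0.628, which overlapped. Spred1 (16.3 ± 0.00610) and Dusp1 (15.5 ± 2.12) overlapped, as did Spred2 (11.6 ± 0.204) and Dusp10 (11.6 ± 1.07). Spry2 was last at 0.570 ± 0.0254. In cKO the same 3 genes led, with Spry1 at 246 ± 39.0 overlapping Dusp4 at 223 ± 41.1. Dusp6 (83.2 ± 9.03) and Dusp5 (51.6 ± 12.2) no longer overlapped there, nor did Dusp10 (11.7 ± 1.90) and Spred2 (8.40 ± 1.20). Summed over the 10 genes the level was 753 and 683 FPKM in WT and 705 and 881 in cKO, with cKO replicate 1 between the WT libraries and cKO replicate 2 above them.

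**Figure D1:**
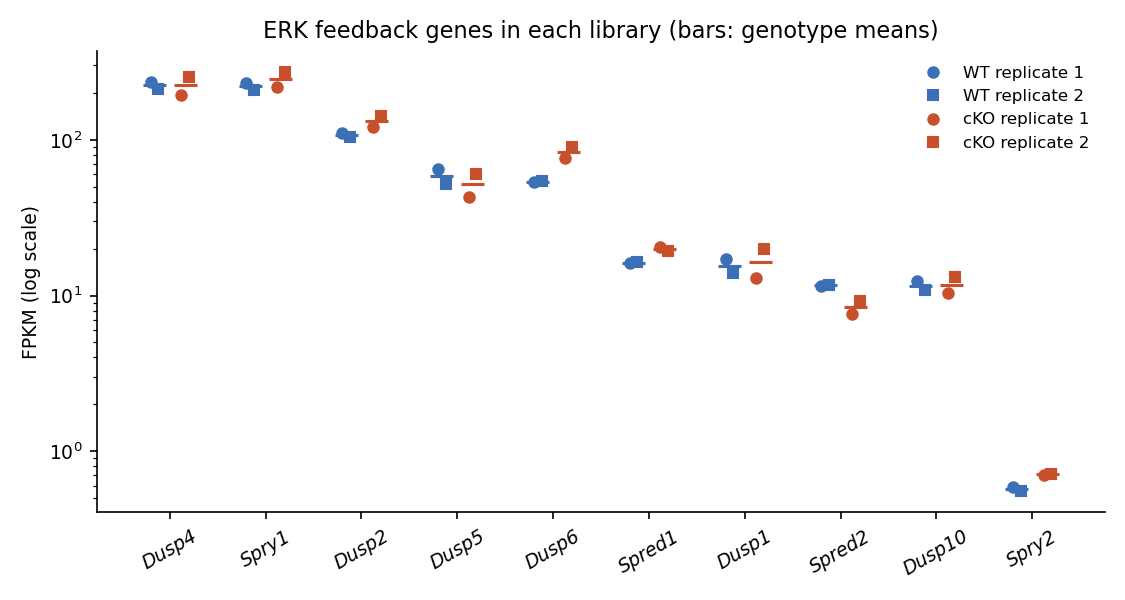
FPKM (y axis, log scale) of the 10 ERK feedback genes (x axis, ordered by WT mean) in each library of the 2 genotypes, whose means are drawn as bars. The cKO points of Dusp6, at 76.8 and 89.6, lie above the WT points, at 53.2 and 54.1, while the cKO values of Dusp1, Dusp4 and Dusp10 lie on either side of both WT values and those of Dusp5 and Spry1 overlap with WT.

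Of the 10 genes 9 had a mean of at least 1 FPKM and were tested with limma on log2(FPKM + 1) across 10562 genes. None was called higher or lower in cKO at an adjusted p under 0.05, against 1.07% of all tested genes, 0.814% higher and 0.256% lower. At an unadjusted p under 0.05 there were 3 of 9, namely Dusp6, Spred1 and Spred2, against 19.8% of all tested genes. The voom test on the recovered reads called 1 of 9, Dusp6, against 5.85% of all tested genes. The genotypes did not overlap for 4 of 9 genes (44.4%), with 3 above WT and 1 below, against 55.9% of all tested genes, 27.2% above and 28.7% below. The median of the log2 fold changes was 0.0544 over the 9 genes, against -0.00337 over all tested genes. In bulk RNA, fewer cells of a type and less RNA per cell cannot be told apart. The labels do not say how the replicates were separated, so p-values measure only the spread between these libraries. The smallest two-sided p of an exact permutation test of 2 libraries against 2 is 0.333, and the calls rest on limma's shared variance.

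Dusp6 encodes the ERK-selective phosphatase of the cytoplasm, and its transcript is widely used as a readout of ERK activity. It had 53.2 and 54.1 FPKM in WT and 76.8 and 89.6 FPKM in cKO, from 3237 to 5443 reads per library. Both cKO values lay above both WT values, and the WT libraries were close to each other. The log2 fold change was 0.62 ± 0.11 (SE), with a 95% interval of 0.33 to 0.91 before adjustment, and higher than in 96.8% of tested genes. It missed the threshold over all genes (limma, adjusted p = 0.0743). The limma fits with a replicate block (adjusted p = 0.106), TPM scaling (0.107) and no filter on low values (0.1995) missed it too. Dusp6 passed in voom on the reads (adjusted p = 0.0291). After a GC correction it was the 1 member called (limma, adjusted p = 0.0467), against 4.99% of all genes. With a replicate block added to that correction it did not pass (limma, adjusted p = 0.0735). It also passed in limma without cKO replicate 1 (adjusted p = 0.0364, against 2.48% of all genes called) and without cKO replicate 2 (adjusted p = 0.0139, against 28.4%). Over all alternatives the log2 fold change ran from 0.51 to 0.73 and the adjusted p from 0.0139 to 0.505, the highest being without WT replicate 2, when the spread comes from the cKO pair.

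Among the nuclear phosphatases, Dusp2, also called PAC-1 and largely restricted to lymphoid cells, had 110 and 104 FPKM in WT and 121 and 143 in cKO. Both cKO values lay above both WT values. The log2 fold change of 0.30 ± 0.12 did not pass (limma, adjusted p = 0.271), with a 95% interval of -0.02 to 0.61. Dusp4, which encodes a nuclear phosphatase of ERK and other MAP kinases, had 235 and 211 FPKM in WT and 194 and 253 in cKO. Here the cKO libraries lay on opposite sides of both WT libraries, and the means were nearly the same, with a log2 fold change of -0.01 ± 0.16 (adjusted p = 0.979) and an interval of -0.41 to 0.40.

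Dusp5, an ERK-specific nuclear phosphatase whose promoter holds the CArG boxes shown above, had 65.4 and 51.8 FPKM in WT and 43.0 and 60.3 in cKO. cKO replicate 1 was under both WT values and cKO replicate 2 between them. Its log2 fold change was -0.19 ± 0.20 (limma, adjusted p = 0.616), with an interval of -0.70 to 0.32. Dusp1, the early response phosphatase MKP-1 that acts on p38, JNK and ERK, had 17.0 and 14.0 FPKM in WT and 12.9 and 20.0 in cKO. Its cKO libraries were the furthest apart among the members, 1.55-fold, and flanked both WT libraries. Its log2 fold change was 0.05 ± 0.22 (adjusted p = 0.904), and the interval of -0.50 to 0.61 is too wide to tell a moderate change in either direction from none.

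Dusp10, which encodes MKP-5, a phosphatase of p38 and JNK, had 12.3 and 10.8 FPKM in WT and 10.4 and 13.1 in cKO. Again cKO replicate 1 lay under both WT values and cKO replicate 2 above them, and the log2 fold change was 0.01 ± 0.14 (limma, adjusted p = 0.965; interval -0.34 to 0.36). Dusp1, Dusp4 and Dusp10 were thus 3 of 9 tested members with that order of libraries, against 9.14% of all tested genes.

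Of the Sprouty genes, whose proteins interrupt signalling between receptor and RAF, Spry1 had 232 and 209 FPKM in WT and 218 and 273 in cKO. Its groups overlapped, since cKO replicate 1 lay between the WT values. The log2 fold change was 0.15 ± 0.15 (limma, adjusted p = 0.588; interval -0.22 to 0.52). Spry2 was near the detection floor, with 24 and 22 reads in WT and 30 and 29 in cKO, or 0.588 and 0.552 against 0.708 and 0.717 FPKM. It stayed under the filter and was not tested, and its log2 difference was 0.13.

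Spred proteins bring neurofibromin, the RAS-inactivating product of Nf1, to the membrane. Spred1 had 16.3 FPKM in both WT libraries and 20.5 and 19.3 FPKM in cKO, with reads from 2112 to 2827. Both cKO values lay above WT, with cKO replicate 1 the higher one. The log2 fold change of 0.27 ± 0.09 had an interval of 0.05 to 0.50 and did not pass (limma, adjusted p = 0.189). It was 0.32 without cKO replicate 2 and 0.23 without cKO replicate 1.

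Spred2 was the lone member with both cKO values below WT, at 11.5 and 11.7 FPKM in WT and 7.56 and 9.25 in cKO. The log2 fold change was -0.43 ± 0.12, with an interval of -0.72 to -0.13, and did not pass (limma, adjusted p = 0.14). It was -0.56 without cKO replicate 2 and -0.30 without cKO replicate 1. Spred1 and Spred2 thus had opposite signs in these libraries, although their difference was not tested.

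**Figure D2:**
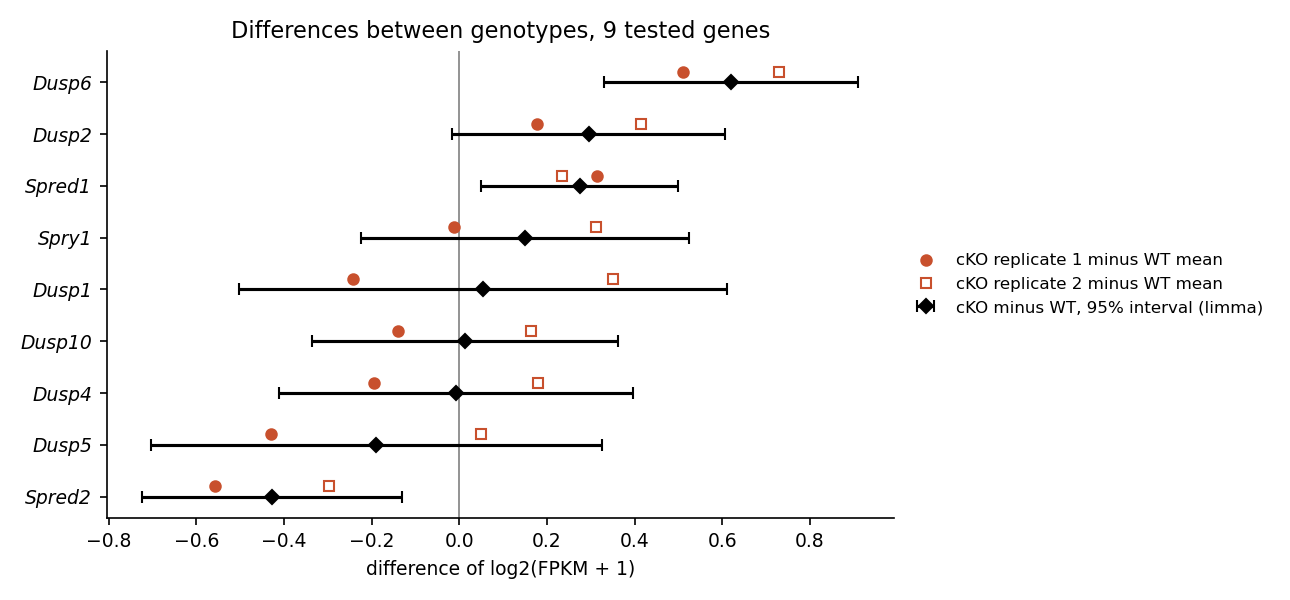
Difference of log2(FPKM + 1) from WT (x axis) for the 9 tested genes (y axis), with diamonds and bars for the limma estimate and its 95% interval, and red points for each cKO library against the WT mean. The intervals of Dusp6 (0.33 to 0.91), Spred1 and Spred2 leave out 0 before adjustment, and the cKO libraries fall on opposite sides of 0 for Dusp1, Dusp4, Dusp5, Dusp10 and Spry1.

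The cKO libraries were set against WT one by one. In cKO replicate 1 the median difference of the 9 tested genes from the WT mean was -0.14 on the log2(FPKM + 1) scale, against -0.00461 over all tested genes. In cKO replicate 2 it was 0.23, against -0.00213. cKO replicate 1 was below both WT libraries for 5 of 9 genes, against 44.4% of all tested genes, and cKO replicate 2 was above both for 7 of 9, against 40.5%. cKO replicate 2 was higher than cKO replicate 1 in 8 of 9 genes, Spred1 being the exception, against 49.4% of all tested genes. The gap between the cKO libraries was wider than that between the WT libraries in 9 of 9 members, and in 71.6% of all tested genes. Signs that both cKO libraries share were found for Dusp6 (0.51 and 0.73), Dusp2 (0.18 and 0.41), Spred1 (0.32 and 0.23), Spry2 (0.12 and 0.13) and Spred2 (-0.56 and -0.30). Values of cKO replicate 1 come first in each pair.

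**Figure D3:**
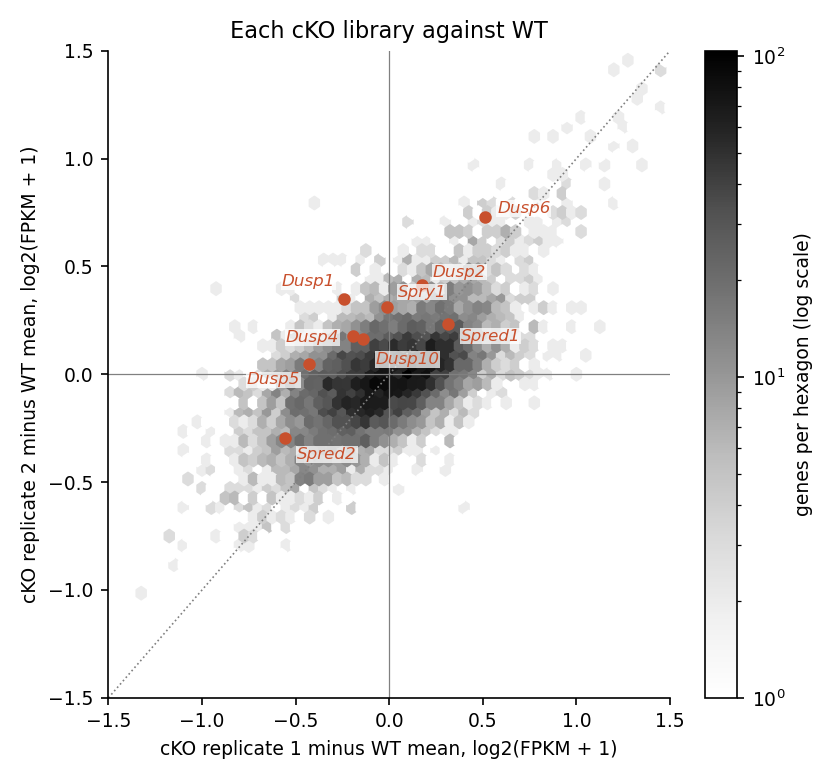
Difference of log2(FPKM + 1) from the WT mean in cKO replicate 1 (x axis) and cKO replicate 2 (y axis), with tested genes within 1.5 of 0 as grey hexagons shaded by number and the 9 tested members in red. All members but Spred1 lie above the dotted line of equal differences, and Dusp6, at 0.51 and 0.73, has the highest value on both axes.

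GC content moved with this gap. The tested members had a median transcript GC content of 54.0%, against 49.6% over all tested genes. The part of GC content in the members' gaps was not tested beyond the values given here. Among 470 genes within 1 percentage point of the GC content of Dusp2 (59.2%) the median difference between cKO replicates 1 and 2 was -0.32, and Dusp2 was at -0.24. Dusp2 and Spry1 (-0.32, against -0.26) lay within the middle 50% of genes of like GC content, as did Spred1 (0.08, against 0.15). Dusp1 at 54.0% GC had -0.59, against a median of -0.125, and Dusp10 at 48.4% GC had -0.31, against 0.0387. Dusp6 at 49.0% GC had -0.22, against 0.0269. These 3 gaps lay beyond the lowest 10% of genes of like GC content, whose bounds were -0.38, -0.19 and -0.21. Dusp4, Dusp5 and Spred2 lay between that bound and the middle 50%. Over the 9 genes Spearman's rho between the gap and GC content was -0.47, a description of 9 points that share the same libraries. With GC content corrected across all genes, the log2 fold changes of Dusp6, Dusp2 and Spred2 were 0.62, 0.43 and -0.40, and of these Dusp6 passed.

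**Figure D4:**
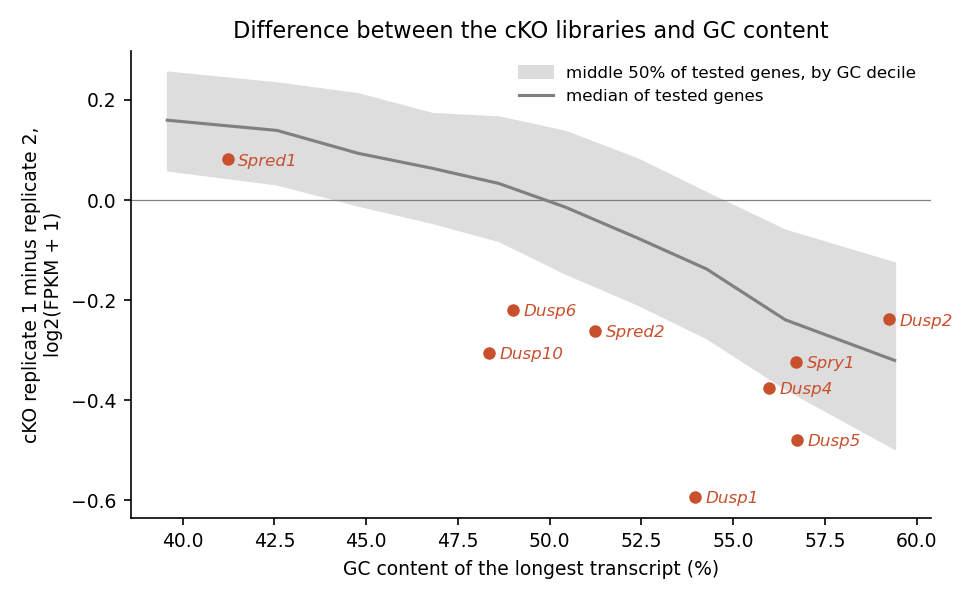
Difference of log2(FPKM + 1) between cKO replicates 1 and 2 (y axis) against GC content of the longest transcript in percent (x axis), with the median and middle 50% of tested genes in 10 groups ordered by GC content and the 9 tested members in red. The gene median goes from 0.16 in the most AT-rich group to -0.32 in the most GC-rich one, and Dusp1 lies lowest of the members at -0.59.

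The pathway these inhibitors act on was read from lists of its other genes. Of the 21 other DUSP, Sprouty, Spred and related phosphatase genes 12 were tested and none passed (lowest limma adjusted p = 0.239; 1 at an unadjusted p under 0.05, against 19.8% of all tested genes; none by voom). The one furthest from 0 was Dusp7, the cytoplasmic ERK phosphatase closest to Dusp6, with 20.7 and 19.8 FPKM in WT and 7.83 and 15.8 in cKO. Its log2 fold change of -0.80 ± 0.30 did not pass, and was -1.27 in cKO replicate 1 and -0.33 in cKO replicate 2, each against the WT mean. At 57.6% GC Dusp7 is among the GC-rich genes, and the part of GC content in its difference was not tested beyond the GC-corrected value of -0.69. The remaining Sprouty and Spred genes, chosen after their values were seen, were low, with Spry4 at 0.126 to 0.169 FPKM, Spred3 at 0.863 to 1.14 FPKM and Spry3 at 0 in all libraries.

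Upstream, none of 12 tested genes for RAS proteins and their activators passed in limma or voom, with 4 at an unadjusted p under 0.05, against 19.8% of all tested genes. Furthest from 0 was the RAS-related GTPase gene Rras, with 4.92 and 4.72 FPKM in WT and 7.33 and 6.85 in cKO (log2 fold change 0.48 ± 0.09, limma adjusted p = 0.0763). Of 5 tested RAS GTPase-activating protein genes none passed in limma and 2 had an unadjusted p under 0.05, beside the same 19.8%. Rasa3 had 4.35 and 4.56 FPKM in WT and 2.85 and 2.86 in cKO. Its log2 fold change was -0.50 ± 0.09 (limma, adjusted p = 0.073), and it was called lower by voom (adjusted p = 0.0281).

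In the kinase chain itself none of 12 tested genes passed in limma, with 3 at an unadjusted p under 0.05, against 19.8% of all tested genes. Map3k8, which encodes the MEK kinase TPL2, was furthest from 0, with 21.8 and 17.2 FPKM in WT and 37.5 and 39.4 in cKO. Its log2 fold change of 0.95 ± 0.14 missed the threshold (adjusted p = 0.0542) and passed in voom (adjusted p = 0.0122). Mapk3, which encodes ERK1 and was chosen after its values were seen, had 16.2 and 17.3 FPKM in WT and 10.9 and 16.4 in cKO (-0.30 ± 0.19, limma adjusted p = 0.425). Of 5 tested kinases downstream of ERK none passed in limma or voom and none had an unadjusted p under 0.05. Mknk2, a kinase gene of translation control, had 55.0 and 56.9 FPKM in WT and 39.4 and 50.3 in cKO (-0.32 ± 0.14, limma adjusted p = 0.289). At 60.3% GC, its log2 fold change was -0.17 after the GC correction and -0.15 without cKO replicate 1.

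The list of ERK-induced transcripts other than the feedback genes was the one with called members, 2 of 30, both higher in cKO, against 1.07% of all tested genes. It also holds the transcription factor genes Srf, Elk1, Elk3, Elk4, Ets1 and Ets2. Induction of its genes by ERK was not measured here. Egr3 rose from 7.27 and 5.52 FPKM in WT to 22.1 and 27.7 in cKO (log2 fold change 1.81 ± 0.17, limma adjusted p = 0.028). Egr1, the classic early growth response gene, rose from 16.0 and 16.1 to 33.4 and 42.5 FPKM (1.18 ± 0.14, adjusted p = 0.0391), but did not pass when WT replicate 1 (adjusted p = 0.1) or WT replicate 2 (0.128) was left out, nor with TPM scaling (0.0583). With no filter on low values neither passed (adjusted p = 0.168 for Egr3 and 0.176 for Egr1). At an unadjusted p under 0.05 there were 12 of 30, against 19.8% of all tested genes. Of these 9 were higher and 3 lower, namely Klf10 (-0.57), Etv5 (-0.31) and Ets2 (-0.26). In voom 5 passed as higher and 1 as lower, against 5.85%. The median log2 fold change of the list was 0.16, against 0.05 for the feedback genes, and the difference was not tested. Of 14 tested JNK and p38 pathway genes none passed in limma, and 6 had an unadjusted p under 0.05, against 19.8% of all tested genes. Furthest from 0 was Mapkapk2, which encodes the p38-activated kinase MK2, with 213 and 172 FPKM in WT and 294 and 359 in cKO (0.76 ± 0.16, adjusted p = 0.0939), and voom called it higher (adjusted p = 0.0339). Without cKO replicate 2, Dusp7, Rras, Rasa3, Map3k8, Mknk2 and Mapkapk2 each passed in limma, with adjusted p from 0.0116 to 0.0425. That setting called 28.4% of all tested genes, and these genes had been named as those furthest from 0 in their lists.

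**Figure D5:**
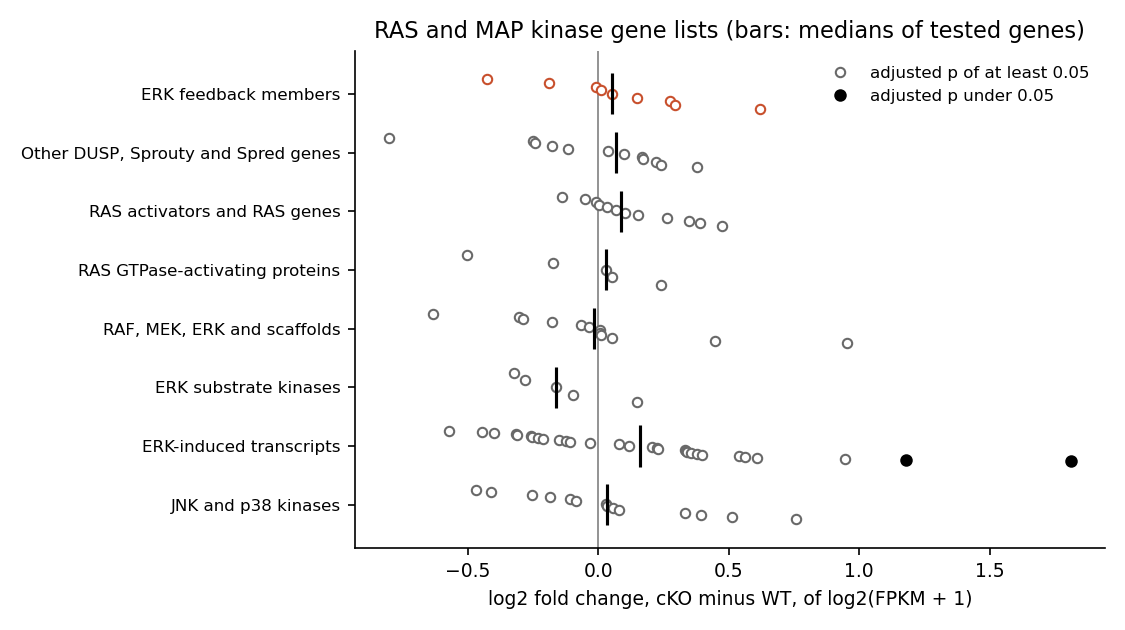
Log2 fold change of log2(FPKM + 1), cKO minus WT (x axis), of every tested gene in 8 lists (y axis), with filled points for an adjusted p under 0.05 and bars at list medians. Egr3 (1.81) and Egr1 (1.18), both in the list of ERK-induced transcripts, are the called genes, while the 9 tested feedback genes run from -0.43 to 0.62.

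Genes with library patterns like those of the extreme members were sought among 6402 protein-coding genes of at least 5 FPKM, by Euclidean distance of mean-centred log2(FPKM + 1) over the 4 libraries. Closest to Dusp6 were Lasp1 (distance 0.0525), Irf9 (0.053), Rxra (0.0887) and Gsn (0.0945). Irf9 had 9.78, 10.3, 14.3 and 16.8 FPKM in the order of WT and then cKO replicates. Closest to Spred2 were Xylt2 (0.0164), Ppp1r16a (0.0233), Rfc2 (0.0234) and Tmem64 (0.0272). A distance over 4 libraries carries no test, and none of the 8 passed the test between genotypes (limma, adjusted p from 0.0723 to 0.143).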

How the data were processed

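FPKM per gene were deposited by the authors for 4 libraries, with gene length in bases as the other column used. Per the submitters' processing notes, counting used featureCounts 1.5.0-p3 and the builds named there are GRCm38 and mm10. For the aligner, annotation release, strand setting and FPKM tool, the sources used here give nothing. Whole reads (within 0.01 read) were recovered from FPKM and length for 100.0% of values above 0, and voom on them called 266 genes higher and 352 lower. Reads bound the precision by counting error only.

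limma 3.58.1 (R 4.3.3) was fitted to log2(FPKM + 1), with a pseudocount of 1, for genes averaging 1 FPKM or more, as the difference cKO minus WT, with a trended variance and without a block. p-values were adjusted by Benjamini-Hochberg over all tested genes, with a threshold of 0.05, two-sided, and intervals are 95%. Fold changes on this scale understate those of low genes. The fit was run on simulated reads with the same dispersion in all libraries and no relation to GC content. That run therefore gives no error rate for calls in these libraries. The members and lists were chosen with earlier results of these data known. Named genes were the members, the PP2A catalytic and scaffold genes, list genes past the threshold (up to 4 per list and direction) or else the tested gene of a list with the largest absolute log2 fold change, and 4 genes nearest in pattern to each of the highest and lowest members. GC content came from the longest transcript of each gene in GENCODE M21, which holds 99.56% of the gene IDs. Alternatives were other pseudocounts, filters, scalings and variance models, a replicate block, a GC correction (loess, span 0.5), voom on the reads, and leaving out each library.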

Additional observations from a re-analysis of the deposited data

How the results depend on the processing

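Dusp6 was the member whose call changed without leaving out a library, with a log2 fold change of 0.62 and a call after the GC correction, and 0.59 and a call in voom on the reads. Members called higher were 1 of 9 with each of these, against 4.99% and 5.85% of all tested genes called in either direction. No member was called lower with either. Leaving out 1 library in turn gave log2 fold changes from 0.51 to 0.73 for Dusp6, 0.18 to 0.41 for Dusp2, 0.23 to 0.32 for Spred1 and -0.56 to -0.30 for Spred2. For the other tested members they ran from -0.24 to 0.35 for Dusp1, -0.20 to 0.18 for Dusp4, -0.43 to 0.0495 for Dusp5, -0.14 to 0.16 for Dusp10 and -0.0118 to 0.31 for Spry1. When an arm keeps 1 library, that library is assumed to vary like the other genotype. The sign also changed for Dusp1 with TPM scaling (-0.0358), for Dusp4 with the GC correction (0.0813, also with the replicate block), and for Dusp10 with TPM scaling (-0.079) and voom (-0.028). TPM scaling shifted the median of all genes by -0.09.

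PP2A genes ran from -0.40 to -0.13 for Ppp2ca, -0.0174 to 0.15 for Ppp2cb, -0.21 to 0.14 for Ppp2r1a and -0.16 to 0.00216 for Ppp2r1b with a library left out. Ppp2cb was at -0.0266 with TPM scaling and Ppp2r1a at 0.0399 with the GC correction, also with the replicate block. Ppp2r1a was at -0.21 without cKO replicate 2 and at 0.14 without cKO replicate 1.

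Over all genes, 86 were called higher and 27 lower. The counts were 0 and 0 with no filter, 52 higher with TPM scaling, 15 lower with a pseudocount of 0.1, 284 and 242 after the GC correction, 43 lower with that and the replicate block, 266 and 352 in voom, and 49 to 1390 and 6 to 1614 with a library left out, most without cKO replicate 2. The cause was not tested. The replicate block gave 154 and 73 calls and none among the members. The numbers were not taken to pair the libraries, because the labels do not say that equal numbers share a mouse or day. Deviations of libraries with the same number correlated at -0.09 across genes. That value cannot decide whether they were paired, since the gap between the cKO libraries also moved with GC content.

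For the lists, leaving out a library gave 0 to 1 higher and 0 to 2 lower among other DUSP genes, 0 to 4 higher among RAS genes, 0 to 2 lower among RAS GTPase-activating genes, 0 to 2 higher and 0 to 4 lower in the kinase chain, 0 to 2 lower among ERK substrate kinases, 1 to 7 higher and 0 to 6 lower among ERK-induced transcripts, 0 to 2 higher and 0 to 3 lower among JNK and p38 genes, and 0 to 1 lower among PP2A genes. In that order the lists held 12, 12, 5, 12, 5, 30, 14 and 4 tested genes. Every upper bound came without cKO replicate 2, a setting that called 28.4% of all tested genes. Whether the list counts differ from that share was not tested. The GC correction and voom each called 1 RAS GTPase-activating gene lower, 1 kinase-chain gene higher, 5 ERK-induced transcripts higher and 1 lower, and 1 JNK and p38 gene higher. voom also called 2 of the latter lower. Of all tested genes the GC correction called 4.99% and voom 5.85%. The filter of 5 FPKM and the replicate block each called 1 kinase-chain gene, Map3k8. ERK-induced transcripts had 0 higher calls with no filter and 1 with TPM scaling.

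Against the WT mean, cKO replicates 1 and 2 were at 0.27 and 0.29 for Spry2, 0.33 and 0.25 for Spred1 and -0.61 and -0.32 for Spred2 with a pseudocount of 0.1, and at 0.32 and 0.24 for Spred1 with median-of-ratios scaling. The depth of about 22 to 30 reads limits Spry2.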
